A study of Mus musculus with 9 samples.

Results

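Duodenal RNA of mice that had first been given gliadin-rapamycin composite nanoparticles was compared with duodenal RNA of the same hypersensitivity model without them. The comparison uses 6 of the 9 libraries of the study, CeD+GR 1 to 3 and CeD 1 to 3, and covers every gene with a mean of at least 0.5 FPKM (a read level normalized to gene length and library size) over the 9 libraries, 14683 of 54532 genes in the deposited table. Of these, 12391 are protein-coding. CeD stands for a delayed-type hypersensitivity mouse model of celiac disease that received enhanced gluten stimulation. CeD+GR stands for that model with the nanoparticles given beforehand and the same stimulation afterwards, so both groups carry the sensitization and the challenge. The remaining 3 libraries, control 1 to 3, come from wild-type mice with non-enhanced gluten stimulation and are given here as the background level. The labels name no strain, sex, age or dose, and no group received empty particles, gliadin alone or rapamycin alone. Whether each library is a different animal is not stated either, and a p-value here covers the spread among these samples, part of which may be technical.

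Celiac disease is an immune enteropathy in which gliadin peptides of gluten activate T cells of the small intestinal mucosa, with loss of villi and an increase of intraepithelial lymphocytes. Rapamycin binds FKBP12 and inhibits the kinase complex mTORC1, which promotes the translation of ribosomal protein messengers and restrains autophagy, and it favours regulatory T cells over effector T cells. Particles that deliver an antigen together with rapamycin are studied as a way to induce tolerance to that antigen. mTORC1 acts largely by phosphorylation and translation, which RNA levels do not measure.

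No gene passed the test between CeD+GR and CeD. In limma on log2(FPKM + 0.5), 0 of 14683 genes (0%) passed an adjusted p of 0.05, and the smallest adjusted p was 1. At an unadjusted p under 0.05, 167 genes were higher and 258 lower in CeD+GR. With limma-voom on the recovered reads, 0 genes passed and 382 had an unadjusted p under 0.05. All 3 CeD+GR libraries lay above all 3 CeD libraries for 442 genes (3.01% of those tested) and below them for 446 genes (3.04%). Were the libraries exchangeable between the groups, separation in either direction would be expected in a share of 0.1 of genes. The observed shares are not above that level, so a lack of overlap does not by itself set a gene apart. A log2 fold change of at least 1 was seen for 402 genes (2.74%), and one of -1 or less for 337 genes (2.3%), 739 in all, and 142 of the 739 had groups that did not overlap. The median log2 fold change over all genes was 0.0082, and the median standard error of a fold change was 0.348. On this scale the fold change of genes with low values is understated, and a gene is called positive or negative below by the sign of its log2 fold change. Every gene and gene group named below is therefore given by its values, as a description of these libraries, and none of them passed the test.

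Libraries of both groups held transcripts of other tissues. Reads assigned to genes numbered 15373260 to 16852104 per library. CeD+GR 3 held transcripts of stomach, where the 15 tested genes of the gastric epithelium list summed to 141400 FPKM, against 1.0 to 56.7 FPKM in the other 8 libraries. CeD 1 held transcripts of pancreas, where the mean log2 level of 25 exocrine pancreas genes was 7.09 against 0.63 and 0.69 in CeD 3 and CeD 2 and 0.55 to 1.61 in CeD+GR. CeD+GR 2 was high in fat cell genes, with a mean log2 level of 5.20 over 12 genes against 1.43 to 2.96 in the others. Pdx1, a transcription factor of proximal duodenum and pancreas, served to check the labelled tissue and ranged from 26.0 to 27.2 FPKM over control. The values were 25.3, 12.0 and 6.64 FPKM for CeD 1 to 3 against 1.59, 0.118 and 46.0 FPKM for CeD+GR 1 to 3. Pdx1 was thus nearly absent from CeD+GR 2, and CeD+GR 1 also lay below every CeD and every control library. The list of Brunner glands, the mucous glands of the proximal duodenum, summed to 3.87 FPKM over 4 genes in CeD+GR 2, the lowest of the 9 libraries. The sum was 45.7 FPKM or more in each of the other 8 and highest in CeD+GR 3, at 119900 FPKM. Outside CeD+GR 3, Muc6 was at 0.0839 FPKM or less and Wfdc2 at 0.590 FPKM or less. Tff2 was there at 0.564 FPKM or less, apart from 46.5 FPKM in CeD 1. Those sums thus came mostly from the remaining member and do not show whether such glands were present. Tff2 and Muc6 are on both this list and the gastric list, and Tff2 alone was at 116220 FPKM in CeD+GR 3. Most of the gastric sum of that library is thus shared with duodenal glands. Gkn3, at 18377 FPKM there, is on the gastric list only.

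To state which differences depend on a single library, each of the 6 libraries was left out in turn. A difference of at least 1 on the log2 scale was taken to rest on a library when leaving that library out turned its sign or brought it under 0.5 of its size. Of the 739 genes past that size, 227 (30.7%) rested on CeD+GR 3, and these were mostly genes higher in CeD+GR, 187 of 402 (46.5%) against 40 of 337 lower genes (11.9%). On CeD 1 rested 61 genes (8.25%), 60 of them among the lower ones (17.8% of those). On either of these 2 libraries rested 284 genes (38.4%), and 4 of them rested on both. CeD+GR 2, which was high in fat cell transcripts, carried 135 genes (18.3%), 89 higher and 46 lower. CeD+GR 1, CeD 3 and CeD 2 carried 20, 23 and 13. On none of the 6 rested 295 genes (39.9%), which were 190 of the 337 lower genes (56.4%) but 105 of the 402 higher ones (26.1%). A larger share of the lower than of the higher differences thus rested on no single library. This follows in part from the filter, since genes near 0 elsewhere could pass it through CeD+GR 3 alone and then rest on it. With a filter at 2 FPKM, 194 genes were higher and 215 lower by at least 1 on the log2 scale. Leaving libraries out did not bring any gene past the threshold. The smallest adjusted p in limma was 0.55 without CeD+GR 3, 0.999 without CeD 1 and 0.145 without both, with 0 genes called and 437, 457 and 478 genes at an unadjusted p under 0.05.

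**Figure D1:**
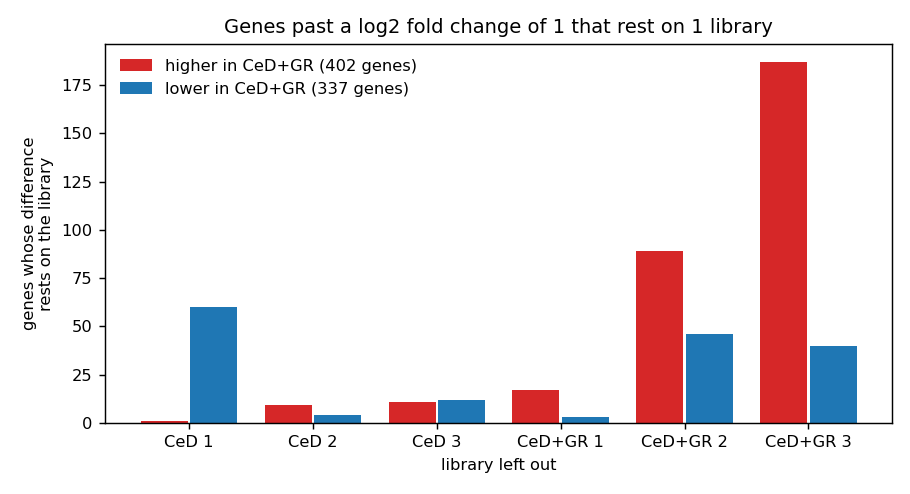
Number of genes with a log2 fold change of at least 1 (red, higher in CeD+GR) or of -1 or less (blue, lower in CeD+GR) whose difference rests on each library left out. CeD+GR 3 carries 187 of the 402 higher genes and CeD 1 carries 60 of the 337 lower ones, with CeD+GR 2 second among the higher genes at 89.

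The differences that rested on CeD+GR 3 began with gastric genes. Of the 15 tested gastric epithelium genes, 15 were positive, with a median of 2.52, and without CeD+GR 3 that median was -0.01. The 15 are those of 22 list members in the deposited table that passed the filter on low values. Most of them passed only through CeD+GR 3, so their positive sign follows from that library and is no separate result. Tff2, a secreted peptide of gastric mucous neck cells and duodenal glands, was at 0, 0 and 116220 FPKM across CeD+GR 1 to 3 and at 46.5, 0 and 0 FPKM across CeD 1 to 3. Gkn3, a gastrokine of the stomach, was at 4.07, 0 and 18377 FPKM across CeD+GR and at 3.87, 0.892 and 0.0709 FPKM across CeD. Its log2 fold change was 4.52 (SE 3.23) with all 6 libraries and -0.0015 without CeD+GR 3. Muc6, the mucin of gastric and duodenal glands, was at 0.0276, 0 and 3268 FPKM across CeD+GR and at 0.0839 FPKM or less in CeD. Tff1 and Muc5ac, which mark surface mucous cells of the stomach, were listed at 0 in 8 libraries and at 13.6 and 17.3 FPKM in CeD+GR 3. In these genes CeD+GR 3 was the highest library, and the other 5 of the comparison were at 4.07 FPKM or less, apart from Tff2 in CeD 1.

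The same library was low in genes of absorptive enterocytes, the villus cells that digest and take up nutrients. Of 32 tested enterocyte genes 30 were negative and 0 had groups that did not overlap, against 3.01% higher and 3.04% lower among all genes. Their median was -0.55. Without CeD+GR 3 the median was 0.17, on the other side of 0. Summed over the list, the level was 8013 FPKM in CeD+GR 3 and 29530 and 35010 FPKM in CeD+GR 1 and 2, against 13960 to 36710 FPKM across CeD. Anpep, the brush border aminopeptidase N, was at 1471, 2316 and 189 FPKM across CeD+GR and at 988, 3153 and 2966 FPKM across CeD. Its log2 fold change was -1.28 (SE 0.92) and -0.19 without CeD+GR 3. Ces2a, a carboxylesterase that hydrolyses esters and drugs, was at 341, 143 and 29.1 FPKM against 342, 560 and 293 FPKM, and its log2 fold change of -1.76 became -0.79. In bulk tissue, fewer cells of a type and less RNA per cell cannot be told apart. The part of the gastric transcripts in these lower values was not tested.

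Antigen presentation followed the same library. Of 11 genes of MHC class II presentation, which show extracellular peptides such as gliadin to CD4 T cells, 10 were negative, with a median of -0.31 and of 0.17 without CeD+GR 3. The summed level was 887 FPKM in CeD+GR 3 and 2563 to 3063 FPKM in the other 2 CeD+GR libraries, against 1849 to 2803 FPKM across CeD. The genes of xenobiotic metabolism, 31 tested of which 29 were negative, had a median of -0.51 that became -0.17.

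The differences that rested on CeD 1 included those of pancreatic enzymes. Of 25 tested exocrine pancreas genes 0 were positive and 25 negative. The median was -2.10 with all libraries, -2.27 without CeD+GR 3 and 0.34 without CeD 1. Ctrb1, which encodes chymotrypsinogen B, was at 1472, 0.0790 and 0 FPKM across CeD 1 to 3 and at 0.221, 0 and 1.53 FPKM across CeD+GR. Its log2 fold change was -3.06 (SE 2.66) and turned to 0.74 without CeD 1. Prss2, a trypsinogen, was at 360, 0.0851 and 0 FPKM across CeD and at 0, 0 and 1.05 FPKM across CeD+GR, and likewise turned from -2.70 to 0.43. Reg1, a secreted regenerating protein of pancreas and duodenum, did not rest on CeD 1. It was at 2587, 2627 and 2081 FPKM across CeD and at 536, 332 and 2929 FPKM across CeD+GR, and its log2 fold change was -1.59 (SE 0.75) and -1.54 without CeD 1. CeD+GR 1 and 2 were low in Reg1 while CeD+GR 3 lay above the 3 CeD libraries.

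**Figure D2:**
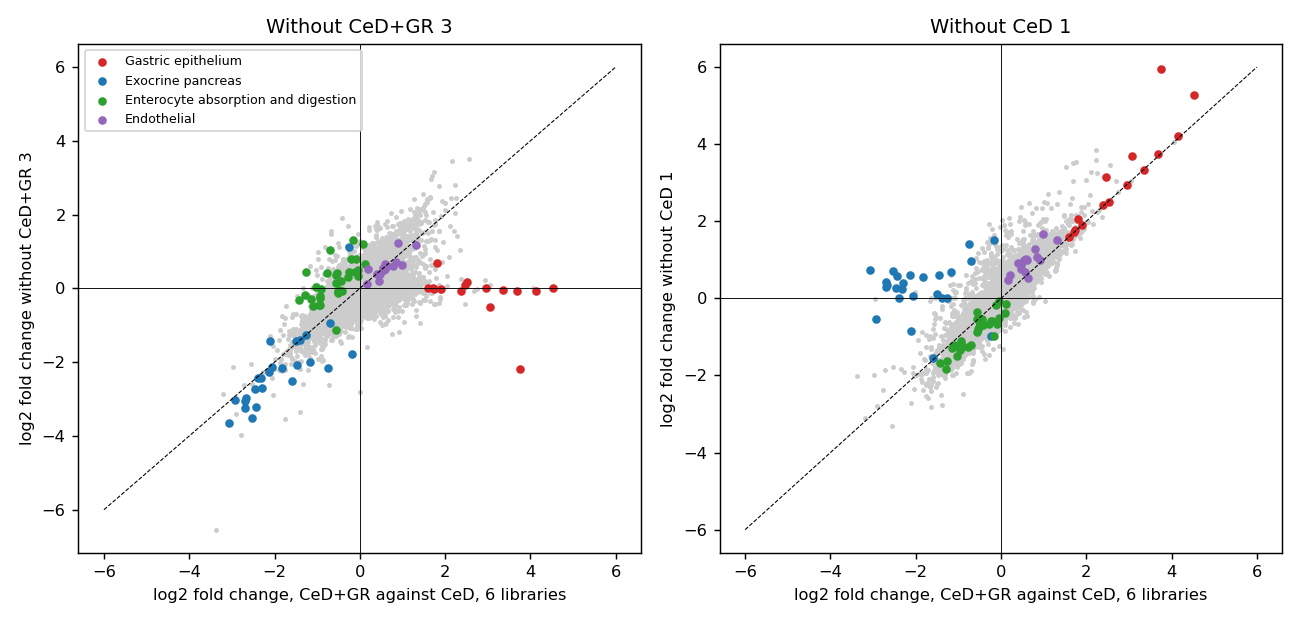
Log2 fold change of CeD+GR against CeD for each of the 14683 genes (grey) with all 6 libraries (x axis) and with CeD+GR 3 (left) or CeD 1 (right) left out (y axis), with 4 gene lists in colour. Gastric genes (red) have a median of -0.01 without CeD+GR 3, with Tff2 at -2.18, most exocrine pancreas genes (blue) lie at or above 0 without CeD 1, and the 15 endothelial genes (purple) are above 0 in both panels.

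Differences that rested on CeD+GR 2 included those of fat cells. The adipocyte list, 12 genes of which 11 were positive, had a median of 0.69, and of -0.43 without CeD+GR 2. Adipoq, the fat cell hormone adiponectin, was at 0, 26.6 and 0 FPKM across CeD+GR 1 to 3 and at 0.0812, 1.51 and 0 FPKM over CeD. Fabp4, the fatty acid carrier of fat cells, was at 4.62, 83.3 and 9.99 FPKM against 3.61, 6.69 and 1.89 FPKM. In both genes CeD 2 was the highest of the CeD libraries, well under CeD+GR 2.

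The higher genes with the smallest unadjusted p were taken among genes whose groups did not overlap. Leaving out CeD+GR 3 or CeD 1 could thus not turn their sign. Those with a log2 fold change of at least 1 rested on neither of these libraries. Bok, a member of the BCL2 family of cell death regulators (ENSMUSG00000026278, mm10 chromosome 1, 93685660 to 93695764), was at 34.6, 19.9 and 22.8 FPKM across CeD+GR 1 to 3 and at 5.00, 7.17 and 7.02 FPKM across CeD 1 to 3. Control stood between, at 8.48, 14.9 and 14.2 FPKM, so the 3 groups did not overlap in this gene. The group means were 25.8 ± 7.82 FPKM (SD, n = 3) in CeD+GR and 6.40 ± 1.21 FPKM across CeD. The log2 fold change was 1.91 (SE 0.30; unadjusted p = 0.000145 and adjusted p = 1 in limma), and 1.82 without CeD 1 and CeD+GR 3. Slc15a2, the peptide transporter PEPT2, was at 1.11, 1.41 and 3.01 FPKM across CeD+GR and at 0.0762, 0.217 and 0.297 FPKM across CeD, with at most 0.232 FPKM across control. Its log2 fold change was 1.68 (SE 0.38), and 1.21 without both libraries.

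Npc2 and Mmp15 had smaller differences with little spread. Npc2, a lysosomal protein that binds cholesterol, was at 20.1, 22.5 and 26.7 FPKM across CeD+GR, at 12.4, 14.2 and 13.1 FPKM across CeD and at 14.9 to 16.8 FPKM across control, for a log2 fold change of 0.77 (SE 0.18). Mmp15, a matrix metalloproteinase anchored in the cell membrane, was at 12.0, 7.79 and 12.3 FPKM across CeD+GR, at 4.62, 6.47 and 4.17 FPKM across CeD and at 3.58 to 4.23 FPKM across control, with a log2 fold change of 1.0 (SE 0.24). In both genes the CeD+GR libraries lay above the control libraries as well as above CeD. Angptl4, an inhibitor of lipoprotein lipase that fasting and fatty acids induce, was higher in CeD+GR by 1.34 on the log2 scale (SE 0.38). It was at 44.5, 45.9 and 18.7 FPKM across CeD+GR, at 9.32, 17.5 and 13.3 FPKM across CeD and at 36.9 to 48.4 FPKM across control, so that 2 CeD+GR libraries lay near control and CeD+GR 3 near CeD. P2ry10, a lysophospholipid receptor of lymphocytes, was at 4.53, 5.05 and 3.02 FPKM against 1.82, 0.465 and 1.06 FPKM, for a log2 fold change of 1.60 (SE 0.41). Tfcp2l1, a transcription factor of epithelia and stem cells, was at 7.70, 6.30 and 8.72 FPKM against 2.58, 4.59 and 4.02 FPKM, a difference of 0.95. Rps27, Rbp4 and Plaur complete the 10, with log2 fold changes of 1.59, 1.50 and 1.94.

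The lower genes with the smallest unadjusted p among those whose groups did not overlap began with Ntn1 and Adgra2. Ntn1, the guidance cue netrin-1 (ENSMUSG00000020902, mm10 chromosome 11, 68209364 to 68400823), was at 2.21, 2.59 and 1.73 FPKM across CeD+GR, at 5.74, 4.42 and 9.25 FPKM across CeD and at 3.37 to 4.91 FPKM across control. Its log2 fold change was -1.33 (SE 0.29; unadjusted p = 0.00125 and adjusted p = 1 in limma), and -1.26 without CeD 1 and CeD+GR 3. Adgra2, an adhesion receptor that serves Wnt signalling in blood vessels (ENSMUSG00000031486, chromosome 8, 27085583 to 27123436), was at 1.14, 1.78 and 1.04 FPKM against 3.39, 4.01 and 7.84 FPKM, with a log2 fold change of -1.56 (SE 0.33). Every CeD+GR library lay below every CeD and every control library in both genes.

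The other 8 lower genes had log2 fold changes from -0.76 to -1.87. Gucy1b1, a subunit of the guanylate cyclase that senses nitric oxide in smooth muscle, was at 3.11, 2.55 and 2.13 FPKM across CeD+GR and at 4.94, 4.63 and 6.17 FPKM across CeD. Slc8a1, the sodium-calcium exchanger of muscle and nerve, was at 1.01, 0.0216 and 0.709 FPKM against 2.16, 2.46 and 5.46 FPKM. Lpp, a focal adhesion protein abundant in smooth muscle, was at 4.30, 3.95 and 4.36 FPKM against 6.92, 7.23 and 8.30 FPKM. Slc10a4, a vesicle protein of neurons, was at 0.276 FPKM or less in CeD+GR and at 0.959 to 2.94 FPKM across CeD. Prkaa2, a catalytic subunit of the energy sensor AMPK, which restrains mTORC1, was at 3.72, 3.37 and 2.54 FPKM against 5.00, 6.56 and 6.20 FPKM. Its log2 fold change was -0.80 (SE 0.20). Colec10, Stum and St3gal2 differed by -1.40, -1.17 and -0.88. The 8 were chosen among genes whose groups did not overlap, so leaving out CeD 1, CeD+GR 3 or both could not turn their sign.

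**Figure D3:**
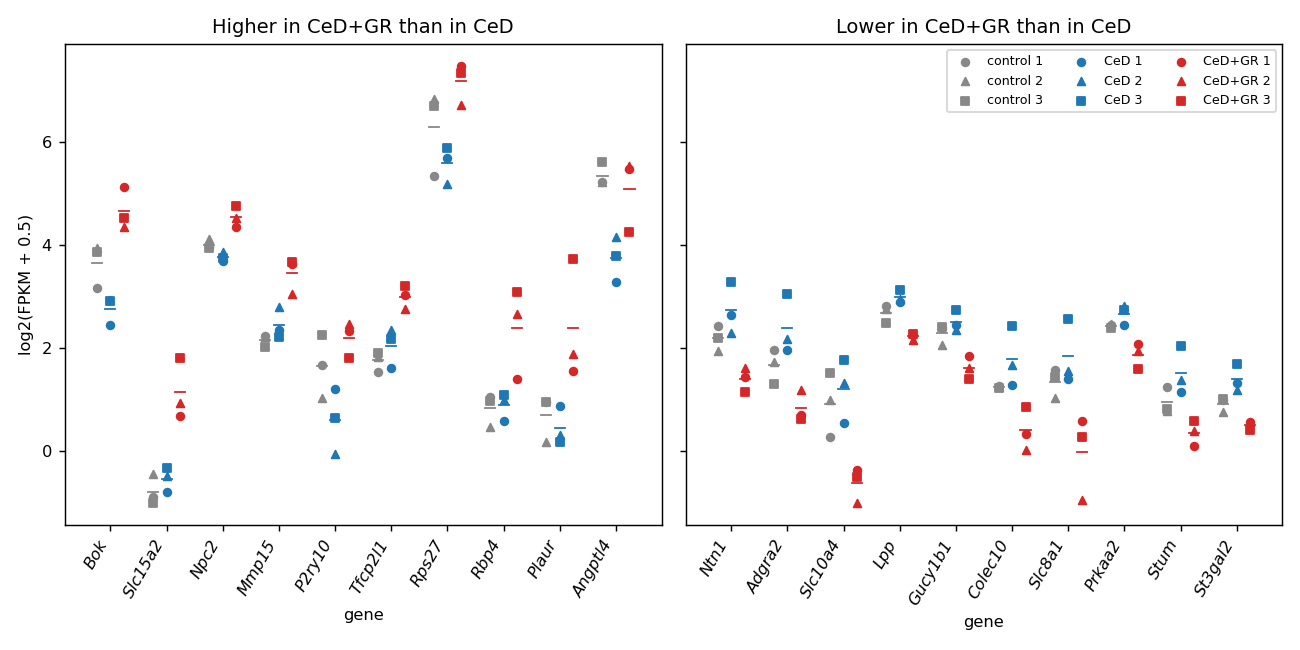
Level of the 10 higher and 10 lower genes with the smallest unadjusted p among genes whose CeD+GR and CeD libraries do not overlap, as log2(FPKM + 0.5) per library (grey control, blue CeD, red CeD+GR), with a line at each group mean. For Bok every CeD+GR library lies above every control library, and for Ntn1 and Adgra2 every CeD+GR library lies below every control library.

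Cyp1a1, a cytochrome P450 that the aryl hydrocarbon receptor induces in response to dietary and microbial ligands, had the lowest log2 fold change among genes whose groups did not overlap (ENSMUSG00000032315, mm10 chromosome 9, 57687928 to 57703824). The bases before its RefSeq start on the plus strand, at chr9:57697363-57697612 of GRCm38.p6, are printed because that receptor's core motif GCGTG lies in them once, in capitals, 54 bases before the start.
Cyp1a1: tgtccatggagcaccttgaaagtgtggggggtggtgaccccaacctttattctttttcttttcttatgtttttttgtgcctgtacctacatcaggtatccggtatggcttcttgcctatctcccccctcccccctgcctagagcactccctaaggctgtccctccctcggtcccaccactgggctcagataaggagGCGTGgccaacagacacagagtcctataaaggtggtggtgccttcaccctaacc
The motif, searched on both strands as GCGTG or CACGC, occurs in 28.2% of 32851 RefSeq promoter windows of 250 bases, so its presence is a description of the letters only. Cyp1a1 was at 10.8, 40.7 and 1.61 FPKM across CeD 1 to 3, at 0.394, 1.59 and 0.176 FPKM across CeD+GR and at 0.552, 1.10 and 0.425 FPKM across control. CeD spread over the widest range, and CeD+GR 2 lay just under CeD 3. The log2 fold change was -3.20 (SE 0.93; unadjusted p = 0.00786 and adjusted p = 1 in limma), and -2.77 without CeD 1 and CeD+GR 3. It ranged from -2.17 without CeD 2 to -4.32 without CeD 3 when 1 of the 6 libraries was left out, so its size depended on these CeD libraries.

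Most of the tested genes that sense and export bile acids had a negative log2 fold change. Of 10 listed genes 7 were tested, of which 6 were negative and 2 lay below CeD in all 3 libraries, against 3.04% of all genes. The median was -0.71, and between -0.56 and -1.02 with any 1 of the 6 libraries left out. The mean log2 level of the list over CeD+GR 1 to 3 was 3.90, 3.86 and 3.62, against 4.26, 4.67 and 4.64 in CeD and 4.43 to 4.89 in control, so that every CeD+GR library lay below every other library. Abcc2, an export pump of the brush border for conjugates, was at 30.5, 34.6 and 14 FPKM across CeD+GR and at 74.9, 93.0 and 38.2 FPKM across CeD, for a log2 fold change of -1.37 (SE 0.42). Nr0b2, the repressor SHP that the bile acid receptor induces, was at 2.28, 5.22 and 6.21 FPKM against 6.89, 7.72 and 7.18 FPKM and 9.36 to 15.6 FPKM across control. Nr1h4, which encodes the bile acid receptor FXR, was the member with a positive log2 fold change, at 0.14. Among other genes of drug and xenobiotic handling, Gstm1, a glutathione transferase, was at 225, 97.5 and 119 FPKM against 301, 286 and 264 FPKM. Abcb1a, which encodes the efflux pump P-glycoprotein, was at 43.4, 27.6 and 7.09 FPKM against 65.7, 156 and 43.0 FPKM, where CeD+GR 1 overlapped CeD 3.

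The mTORC1 pathway, the target of rapamycin, showed small differences in both directions. Of 34 tested components and regulators 18 were positive and 16 negative, and the median log2 fold change was 0.06. In limma 0 of them had an unadjusted p under 0.05, against 425 of all 14683 genes. Mtor, the kinase itself, was at 3.75, 0.992 and 4.05 FPKM across CeD+GR, at 6.23, 3.31 and 2.80 FPKM across CeD and at 2.46 to 5.69 FPKM across control, for a log2 fold change of -0.52 (SE 0.50). Its groups overlapped, and CeD+GR 2 was the low library. Rptor, the scaffold of the complex, differed by -0.40 (SE 0.29) and Rps6kb1, which encodes the S6 kinase, by -0.01 (SE 0.21). Eif4ebp1, the translation repressor that mTORC1 phosphorylates, differed by 0.37 (SE 0.35), and Fkbp1a, which encodes FKBP12, by 0.20 (SE 0.27). The groups of 3 members did not overlap, 2 of 34 higher and 1 lower, against 3.01% and 3.04% of all genes. Lamtor3 and Lamtor5, subunits of the Ragulator complex that holds mTORC1 at the lysosome, were higher in CeD+GR by 0.40 and 0.41, and Mlst8, a shared subunit of both mTOR complexes, was lower by 0.20 on the log2 scale. Sgk1, a kinase downstream of mTORC2, was at 209, 138 and 56.0 FPKM across CeD+GR and at 40.6, 111 and 21.9 FPKM across CeD, for a log2 fold change of 1.33 (SE 0.63) with overlapping groups. Of 31 autophagy and lysosome genes 24 were positive, with a median of 0.12 that became -0.05 without CeD 1 and CeD+GR 3.

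Cytosolic ribosomal protein genes, whose messengers mTORC1 controls at translation, had a positive log2 fold change in 37 of 37 members, with a median of 0.50. In 5 of the 37 all CeD+GR libraries lay above all CeD libraries, against 3.01% of all genes. The mean log2 level over CeD+GR 1 to 3 was 7.53, 6.45 and 7.68, against 6.99, 6.56 and 6.54 over CeD, so CeD+GR 2 lay below all 3 CeD libraries. The median was 0.27 without CeD+GR 3, 0.64 without CeD 1 and 0.86 without CeD+GR 2. Rps27 had the largest difference of the list, at 179, 105 and 163 FPKM across CeD+GR, 51.5, 36.1 and 59.2 FPKM across CeD and 40.2, 114 and 105 FPKM across control. Reads of these genes may be shared with their many processed copies in the genome. The 97 tested ribosomal protein pseudogenes had a median of 0.53, with a mean log2 level of 3.11, 2.48 and 3.32 in CeD+GR and of 2.42 to 2.57 in CeD. Of 20 translation factor genes 18 were positive, with a median of 0.24.

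Across protein-coding genes, the difference between CeD+GR and CeD moved with gene length. The protein-coding genes were divided by gene length into 5 bins of 2478 or 2479 genes. In the bin of the shortest genes, up to 2288 bases, the median log2 fold change was 0.15, and 5.16% of the genes lay above CeD in all CeD+GR libraries against 1.53% below. In the bin of the longest genes, from 7211 bases, the median was -0.12, and 0.888% lay above against 5.85% below. The 3 bins between had medians of 0.06, 0.01 and -0.04. The level of the shortest relative to the longest genes, as the difference of their median deviations from the gene means, over CeD+GR 1 to 3 was 0.04, 0.14 and 0.20, against -0.41, -0.02 and 0.06 in CeD 1 to 3 and -0.33, 0.17 and 0.16 in control 1 to 3. CeD 1 and control 1 were thus the libraries with the lowest short genes, and without CeD 1 the medians of the shortest and longest genes were 0.08 and -0.05. When each library was centred within 20 bins of gene length, genes of the longest bin that did not overlap were 74 higher and 72 lower, in place of 22 and 145, and those of the shortest bin 74 higher and 73 lower, in place of 128 and 38. Centring left 0 genes past the adjusted p in limma.

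**Figure D4:**
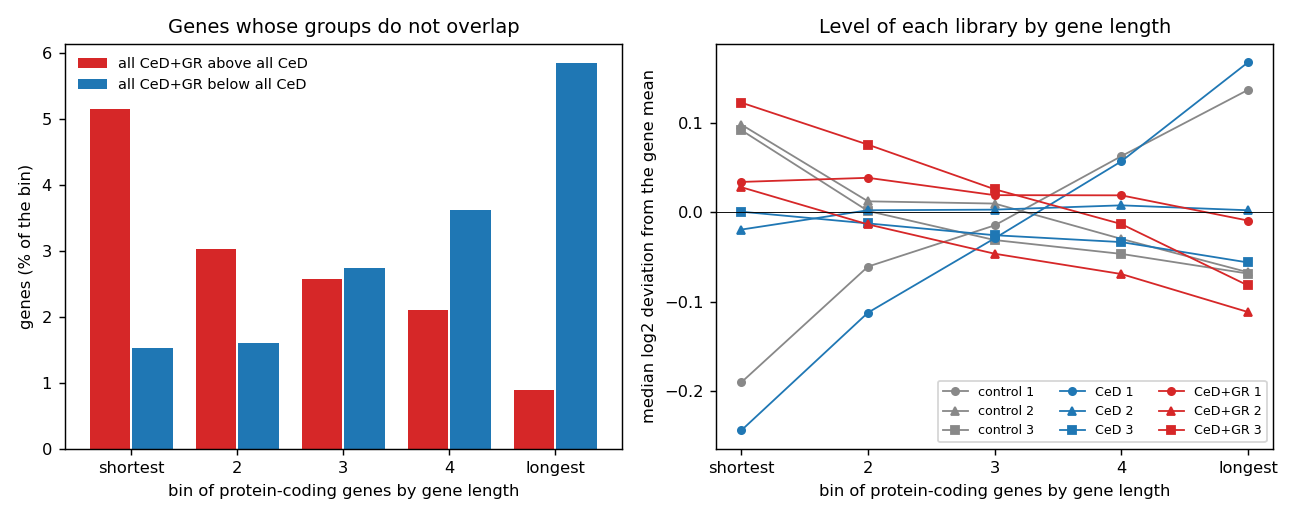
Left, share of protein-coding genes in each bin of gene length whose 3 CeD+GR libraries all lie above (red) or below (blue) the 3 CeD libraries, from 5.16% above in the shortest to 5.85% below in the longest. Right, median deviation from the gene mean on the log2 scale in each library by bin, where CeD 1 and control 1 rise with length.

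Gene length moved with several of the values above. The median length of the ribosomal protein genes was 1770 bases, within the shortest bin, and their median log2 fold change was 0.39 after centring, against 0.50 before. Bok, with 1840 bases, had a log2 fold change of 1.76 after centring, and Cyp1a1 one of -3.28. The 20 genes with the smallest unadjusted p among those whose groups did not overlap all stayed without overlap, which follows in part from that choice. Synpo2, Muc2, Kit and Rps23 overlapped between the groups after centring, while Abcb1a and Il18, which overlapped before it, were then lower in CeD+GR without overlap. The bile acid list had a median of -0.84 after centring and the endothelial list one of 0.60. The part of gene length, RNA integrity or library preparation in the other values was not tested.

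Markers of cytotoxic T cells and intraepithelial lymphocytes had a mean level above CeD in CeD+GR 1 and 2 and below it in CeD+GR 3. The cytotoxic and intraepithelial lymphocyte list, 16 genes, had a mean log2 level of 2.84, 2.75 and 1.82 in CeD+GR 1 to 3, 2.26 to 2.47 in CeD and 2.88 to 3.11 in control. Of the 16 genes 12 were positive and 4 negative, and 0 had groups that did not overlap, against 3.01% higher and 3.04% lower among all genes. The median log2 fold change was 0.18, 0.54 without CeD+GR 3, 0.06 without CeD+GR 2 and, on the other side of 0, -0.06 without CeD+GR 1. Gzmb, the granule protease granzyme B, was at 53.1, 36.2 and 15.0 FPKM across CeD+GR, at 25.8, 26.1 and 23.8 FPKM across CeD and at 43.6 to 56.0 FPKM across control. Klrd1, the CD94 receptor, was at 4.59, 10.3 and 2.01 FPKM against 2.49 to 2.93 FPKM across CeD, and Cd8a at 8.17, 10.8 and 4.34 FPKM against 5.63 to 7.16 FPKM. For these 3 genes CeD+GR 1 and 2 lay above, and CeD+GR 3 below, every CeD library, which did not hold for every member. Nkg7, a granule protein of cytotoxic lymphocytes, was at 10.7 FPKM in CeD+GR 1, under the 12.1 FPKM of CeD 3. Tbx21, the transcription factor T-bet, had a negative log2 fold change of -0.66 (SE 0.35), at 0.519, 0 and 0.0246 FPKM across CeD+GR against 0.609, 0.446 and 0.512 FPKM.

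Of 12 tested genes of regulatory T cells and tolerance, the state that such particles aim at, 10 were positive, with a median of 0.17. The median was 0.52 without CeD+GR 3 and turned to -0.03 without CeD+GR 1. Tgfb1, the tolerogenic cytokine TGF-beta 1, was at 2.69, 2.80 and 5.30 FPKM across CeD+GR and at 2.24, 1.22 and 1.60 FPKM across CeD, without overlap between these groups and with a log2 fold change of 0.87 (SE 0.33). The control range was 1.42 to 2.85 FPKM. Ctla4, the inhibitory receptor of regulatory and activated T cells, was at 5.40, 5.42 and 1.60 FPKM against 2.26, 0.208 and 1.74 FPKM, for a log2 fold change of 1.35 (SE 0.71) with overlap. Il15, the epithelial cytokine that drives intraepithelial lymphocytes, was at 12.3, 32.9 and 4.46 FPKM against 9.45, 18.5 and 13 FPKM, so CeD+GR held both the highest and the lowest value. Il18, an epithelial cytokine of the inflammasome pathway, was at 104, 54.2 and 44.4 FPKM against 92.5, 117 and 150 FPKM, for a log2 fold change of -0.90 (SE 0.37). Among 27 type I interferon response genes 21 were negative, and the median of -0.26 became 0.01 with CeD+GR 1 left out and -0.64 with CeD+GR 2 left out.

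**Figure D5:**
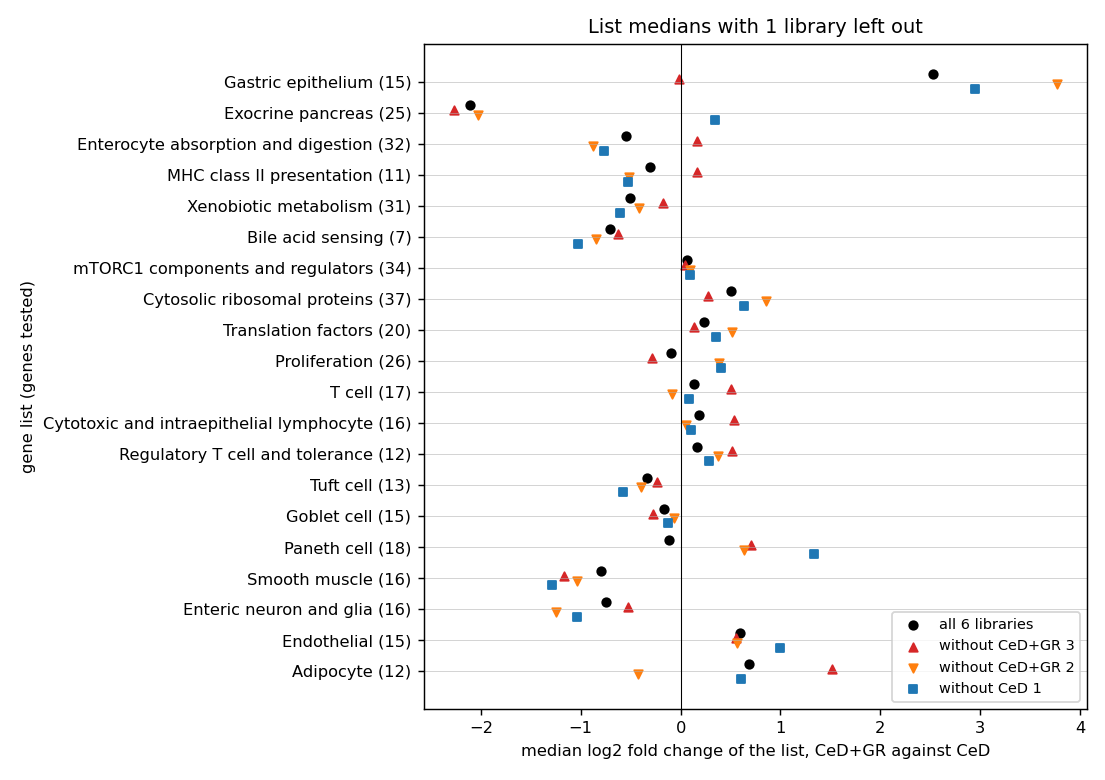
Median log2 fold change of CeD+GR against CeD for 20 gene lists, with the number of genes tested, for all 6 libraries (black) and with 1 library left out. The gastric and enterocyte medians move to or across 0 without CeD+GR 3. The pancreas and proliferation medians cross 0 without CeD 1. The smooth muscle, bile acid sensing and endothelial medians stay on their side of 0. So do those of several other lists, among them cytosolic ribosomal proteins and tuft cells.

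In the secretory epithelium, markers of tuft cells, the chemosensory cells of the mucosa, included 4 of 13 genes with every CeD+GR library below every CeD library, against 3.04% of all genes. The list had a median of -0.34 and 9 negative members. Dclk1, the microtubule kinase that marks tuft cells, was at 0.671, 0.498 and 0.428 FPKM across CeD+GR and at 0.906, 1.58 and 1.41 FPKM across CeD, and Alox5, the lipoxygenase of leukotriene synthesis, at 0.818, 0.139 and 0.357 FPKM against 0.860, 1.15 and 1.48 FPKM. The summed level of the list was 31.6 to 36.5 FPKM across CeD+GR and 28.0 to 41.8 FPKM across CeD, so the groups overlapped in the sum. Of 15 goblet cell genes 6 were positive and 9 negative, with a median of -0.16, and 2 lay below CeD in all CeD+GR libraries, against 3.04% of all genes. The mean log2 level of that list was 6.23 in CeD+GR 3, the highest of the 9 libraries. The 2 were Muc2 and Atoh1. Muc2, the goblet cell mucin, was at 77.8, 70.2 and 33.0 FPKM against 82.6, 140 and 116 FPKM. Atoh1, the transcription factor of secretory cell fate, was at 3.32, 2.93 and 1.67 FPKM against 4.05, 6.38 and 3.60 FPKM, for a log2 fold change of -0.72 (SE 0.28). Paneth cell genes depended on which libraries were left out, with a median of -0.11 over 18 genes, 1.34 without CeD 1 and -1.50 without CeD+GR 1. These 2 libraries had mean log2 levels of 5.37 and 5.33, against 1.38 to 1.76 in the other 4. Control 1 to 3 were at 4.39, 1.40 and 2.22, so replicate 1 was the highest library in each group. Proliferation genes, 26 tested, had a median of -0.09, and one of 0.41 without CeD 1 and of 0.38 without CeD+GR 2.

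Markers of the gut wall differed in 2 directions. Smooth muscle genes were negative in 15 of 16, with a median of -0.80, and the median was -1.17 without CeD+GR 3, -1.28 without CeD 1 and -0.21 without CeD+GR 1. Their mean log2 level over CeD+GR 1 to 3 was 3.14, 4.63 and 4.64, against 4.03, 5.01 and 5.85 over CeD, with 4.23 to 4.82 in control. CeD+GR 1 was the lowest and CeD 3 the highest of the 9 libraries. Synpo2, an actin-binding protein of smooth muscle, was at 2.09, 5.10 and 3.94 FPKM against 5.54, 10.8 and 18.2 FPKM. Gap43, a growth cone protein of neurons, was at 0.763, 2.21 and 0.723 FPKM against 2.32, 3.74 and 5.02 FPKM, and 13 of 16 enteric neuron and glia genes were negative, their median being -0.75. Kit, the receptor of pacemaker cells and mast cells, was at 1.04, 1.43 and 1.30 FPKM against 1.59, 2.29 and 3.21 FPKM. The list of mast cells, eosinophils and neutrophils that holds Kit had 5 of 7 positive members and a median of 0.35, which became -0.09 without CeD+GR 3. Fn1, the matrix protein fibronectin, was at 4.46, 3.41 and 3.77 FPKM against 10, 5.88 and 11 FPKM, the lowest log2 fold change of the fibroblast and matrix list. That list had 7 positive and 11 negative members, and its median of -0.16 turned to 0.19 without CeD 1. How much muscle wall each piece of tissue held was not given in the sources used here, and its part in these values was not tested.

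Endothelial genes were positive in 15 of 15, with a median of 0.59. The median was 0.55 without CeD+GR 3, 0.995 without CeD 1 and 0.34 without CeD 2. The mean log2 level was 1.96, 1.90 and 2.07 in CeD+GR, 2.01, 0.96 and 1.07 in CeD and 2.10, 0.91 and 1.31 in control, so CeD 1 and control 1 lay at the level of CeD+GR. Esam, an adhesion molecule of endothelial junctions, was at 4.17, 8.26 and 8.36 FPKM against 3.15, 1.67 and 2.41 FPKM, for a log2 fold change of 1.32 (SE 0.38). Emcn, the sialoglycoprotein endomucin, was at 1.75, 1.46 and 2.30 FPKM against 1.25, 0.616 and 0.572 FPKM. Both were without overlap between CeD+GR and CeD.

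The study set out to look at transcription factors, and 807 genes with a transcription factor family in the deposited table were tested. Of these 0 passed in limma, the unadjusted p was under 0.05 for 7 higher and 11 lower genes, 17 lay above CeD in all CeD+GR libraries and 41 below, against 3.01% and 3.04% of all genes, with 359 positive and a median of -0.05. The median length of these genes was 4857 bases. The genes named here were chosen after their values were seen. Nr3c2, the mineralocorticoid receptor, was at 5.28, 4.51 and 2.75 FPKM across CeD+GR and at 7.67, 10.5 and 7.64 FPKM across CeD, for a log2 fold change of -0.99 (SE 0.26). Nfatc4, a calcium-responsive factor of the NFAT family, was at 0.511, 0.634 and 0.632 FPKM against 0.859, 1.39 and 1.84 FPKM. Meox1, a homeobox factor of mesoderm and vessels, was at 1.36, 1.31 and 1.78 FPKM against 0.906, 0.280 and 0.436 FPKM, and Nr4a3, an orphan receptor induced early after stimulation, at 0.798, 0.435 and 2.89 FPKM against 0.151 to 0.264 FPKM. The zf-C2H2 family, 327 genes, had 156 positive members and a median of -0.02. It had 4 above and 21 below CeD in all CeD+GR libraries, against the same 3.01% and 3.04%, with Zfp866 among the latter at 1.0, 0.884 and 1.54 FPKM against 2.34, 2.78 and 2.83 FPKM.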

How the data were processed

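Duodenal RNA of 9 mouse libraries was sequenced after removal of ribosomal RNA with a directional kit, per the labels' protocols. The authors deposited 1 table of FPKM values per gene, with gene lengths, mm10 coordinates and transcription factor families. The build mm10 and the tools HISAT2 2.0.5, featureCounts 1.5.0-p3, fastp and DESeq2 1.20.0 are listed in the submitters' processing notes, without role or order. Neither the annotation release nor the strand setting is given in the labels and notes, so overlapping genes on opposite strands cannot be told apart.

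Multiplied by gene length, the FPKM of a library fall on whole multiples of a fixed step (tolerance 0.1 reads), which gave its reads. FPKM are not counts, so log2(FPKM + 0.5) was fitted with limma 3.58.1 in R 4.3.3, in a group-means model over all 9 libraries with a mean-variance trend. The 2 groups were compared two-sided, with Benjamini-Hochberg adjustment over 14683 genes at 0.05. The smallest two-sided exact permutation p in this design is 0.1. The filter kept genes averaging 0.5 FPKM or more. The fit was tested on simulated data with the mean and spread of each gene in these libraries. Of 50 genes changed at each size, it recovered 8% at a log2 change of 1 and 34% at 2. At 3 and 4 it recovered 74% and 92%, with 7 false calls. Most changes of 1 or 2 on the log2 scale were thus not called in the simulated data. There each gene varied independently, while transcripts of other tissues moved many genes of a library together here. The rates may therefore differ for these libraries.

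Named genes are the 10 per direction with the smallest unadjusted p among protein-coding genes whose groups do not overlap and whose higher group averages at least 1 FPKM, up to 3 per gene list by p, the mTORC1, gastric and pancreas lists, the 8 largest differences that rest on CeD+GR 3 or CeD 1, the 8 widest gaps, and a short fixed set. The comparison, lists and rule were chosen with earlier results of these data known. Lists are described by counts and medians without a set test. Promoter bases are from RefSeq. Alternatives were a pseudocount of 0.1 or 1, a filter at 2 FPKM or none, rescaling, quantile normalization, other variance models, a replicate block, a term for replicate 1, protein-coding genes only, limma-voom on recovered reads and libraries left out. Centring by gene length and leaving out CeD 1, CeD+GR 2 and CeD+GR 3 together were added after seeing the data. The labels state no pairing by replicate number, so the main fit has no term for it. Deviations of same-numbered CeD and CeD+GR libraries correlated at 0.38, 0.25 and -0.12. These 3 values cannot decide whether same-numbered libraries share an animal pairing or a batch.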

Additional observations from a re-analysis of the deposited data

How the results depend on the processing

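Under every alternative, 0 genes passed the adjusted p in limma in either direction, also with the replicate block, where the unadjusted p was under 0.05 for 358 higher and 447 lower genes in place of 167 and 258. The smallest adjusted p over all settings was 0.145, without CeD 1 and CeD+GR 3. The number of genes with a log2 fold change of at least 1, 402 higher and 337 lower, was 620 and 716 at a pseudocount of 0.1 and 243 and 192 at 1. It was 654 and 838 with limma-voom, 899 and 748 with replicates 2 and 3 only, and 830 and 700 without CeD+GR 1. With the 3 libraries CeD 1, CeD+GR 2 and CeD+GR 3 left out, a setting chosen after seeing the data that leaves CeD+GR with 1 library assumed to vary like the others, 869 genes were higher and 789 lower by that measure.

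Among the log2 fold changes of 66 named genes, 53 kept their sign in every setting. Many of the 66 were named because their groups did not overlap, and leaving out libraries cannot by itself turn the sign of such genes. The count of 53 thus follows in part from how the genes were chosen. Over the fits that omit 1 library, or omit CeD 1 and CeD+GR 3 while adjusting for replicate 1, the range was -1.11 to 0.0034 for Mtor, -0.17 to 0.14 for Rps6kb1, -0.21 to 0.60 for Eif4ebp1, -0.78 to 0.87 for Il15, -0.10 to 0.60 for Cd8a, -0.17 to 0.38 for Nr1h4 and -0.11 to 0.79 for Gzmb. It was -2.18 to 6.73 for Tff2, -0.068 to 6.27 for Muc6, -0.64 to 7.58 for Gkn3, -5.02 to 0.74 for Ctrb1 and -4.32 to 0.43 for Prss2. Without CeD 1 and CeD+GR 3, Il15 was at 0.36, Muc6 at -0.0099 and Ctrb1 at 0.16, and Prss2 kept its sign. With CeD+GR 2 left out as well, Mtor was at 0.26, Rps6kb1 at 0.15, Fkbp1a at -0.16 and Ctrb1 at 0.42. With replicates 2 and 3 only, Rps6kb1 was at 0.053, Gzmb at -0.094, Nr1h4 at -0.22, Ctrb1 at 0.91 and Prss2 at 0.70. Rps6kb1 turned to 0.060 with array weights and to 0.077 with centring by gene length. The cause of these turns was not tested, beyond the libraries named. The 3 libraries per group limit the precision, with a median standard error of 0.348 for a log2 fold change.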
